A study of Homo sapiens with 3 samples.

Results

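Late-only SMAD2/3 sites of high score were examined in MCF10A MII cells. They are peaks of the 16 h list with a score of at least 80 that share no base with any 1.5 h peak, whatever its score. There were 263 of them among the 3280 peaks listed at 16 h, and 5486 peaks in both lists together. The sites were selected on their 16 h score and on the absence of an overlapping 1.5 h peak, so both properties describe the choice and are not findings. MCF10A MII is an H-Ras transformed human breast epithelial cell line, kept in medium with serum, EGF, cholera toxin, hydrocortisone and insulin. One ChIP-seq library was made with an anti-SMAD2/3 antibody 1.5 h after 5 ng/ml TGFβ3 was added and 1 library at 16 h. The third sample, input DNA of untreated cells, was not analysed here. No SMAD2/3 ChIP library of untreated cells was used, so the comparison is between early and late binding during stimulation.

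Each peak carries the score that the authors' peak caller, MACS, gave it. The sources used here do not define the score, so it served to rank and choose peaks within a list. Each time had 1 library, so no value has a replicate error and no difference between the times was tested. Sequencing depth and reads per peak are unknown from the lists, and both bear on whether a site reaches the list at a given time. The 95% exact binomial intervals below cover counting error only and treat neighbouring peaks as independent. Positions are on hg19, and no gene was assigned to any site, because no annotation or sequence of that build was used here. For the same reason, no site was checked against repeats or against regions prone to artefact peaks. A peak list holds no expression values, so the cell type label was not checked against marker genes.

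SMAD2 and SMAD3 are the receptor-regulated SMADs of the TGFβ pathway. The activated type I receptor phosphorylates them, they join SMAD4, and the complex enters the nucleus and binds DNA. SMADs bind short DNA elements weakly on their own, so partner transcription factors such as AP-1 proteins help to set where they bind. Prolonged TGFβ stimulation of epithelial cells with active Ras is known for epithelial-mesenchymal transition, in which cells lose their junctions and make matrix.

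Sites scoring 80 or more at 16 h were divided nearly evenly between late-only and shared ones. Of 589 such 16 h peaks, 263 (44.7%, interval 40.6 to 48.8%) were late-only and 326 overlapped a 1.5 h peak. Among 16 h peaks of any score the late-only share was 83.4%, and 2473 late-only peaks scored under 80. In the 1.5 h list, 348 of 685 peaks scoring 80 or more at 1.5 h (50.8%, interval 47.0 to 54.6%) shared no base with a 16 h peak. With a reciprocal overlap of 50% as the criterion of sharing, the number of late-only sites rose to 407. With a score of at least 100 it was 142, and with at least 60 it was 832.

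Within the 16 h list the late-only share was lower in the higher score classes. At 16 h it was 61.1% (52.2 to 69.5%) for the 131 peaks scoring 80 to 90. It was 54.8% (44.2 to 65.2%) for the 93 peaks scoring 100 to 120 and 38.5% (27.7 to 50.2%) for the 78 scoring 150 to 200. Only 19 of the 117 peaks scoring 200 or more were late-only (16.2%, 10.1 to 24.2%). For 1.5 h peaks without a 16 h overlap, the shares at the same numeric scores were 67.2%, 55.1%, 40.8% and 17.7%. For scores of 90 to 100 the share was 50.6% (39.3 to 61.9%) in the 16 h list and 68.2% (58.6 to 76.7%) in the 1.5 h list. Scores rank peaks within a list, so the shares of the 2 lists stand side by side and were not compared. The shares rest on score and overlap, on which the sites were chosen, and are a description. Widths at 16 h also rose with score, and how far width bears on the shares was not tested. Ranked by score, the 16 h list had 1 late-only site among its first 25 peaks, 12 among its first 100 and 210 among its first 500. The 1.5 h list had 3, 14 and 225 peaks without a 16 h overlap at the same ranks.

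**Figure D1:**
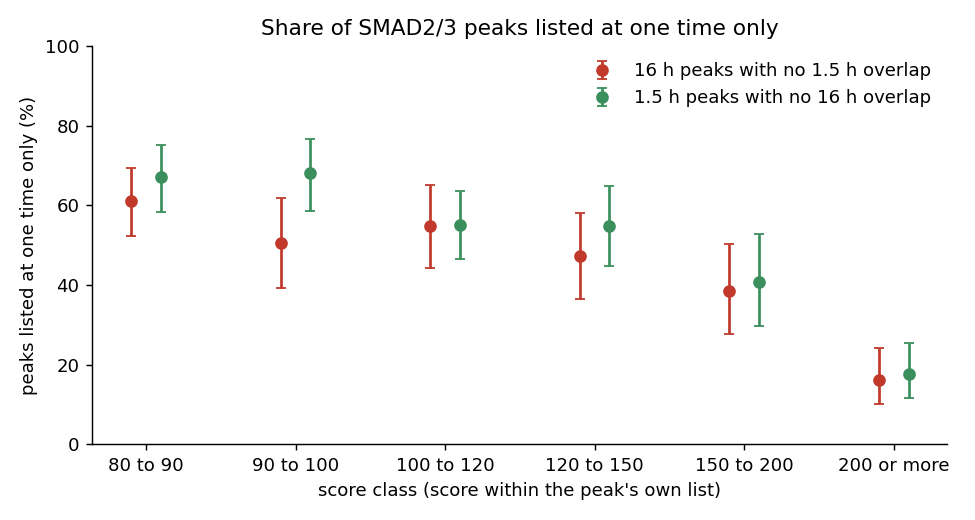
Share of peaks listed at one time only (y axis, percent) in 6 score classes (x axis), for the 16 h list (red) and the 1.5 h list (green). Bars are 95% exact binomial intervals. Both series fall from over 60% at scores of 80 to 90 to under 20% at 200 or more.

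The scores of the late-only sites reached from 80.02 to 630, with a median of 103 (quartiles 88.1 and 130). Shared 16 h peaks with the same minimum had a median of 140 (quartiles 97.6 and 224) and a maximum of 1650. Just inside the minimum lay sites on chromosome 4 at 116232324 to 116232445 and on chromosome 14 at 97277638 to 97277757, with scores of 80.02 and 80.06. Just outside it lay late-only peaks on chromosome 2 at 208259770 to 208259971 and on chromosome 10 at 75654551 to 75654693, with scores of 79.35 and 79.31. The minimum therefore separates peaks of nearly equal score.

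The 25 late-only sites of highest score lay on 14 chromosomes and scored 182 to 630. They ranked between 8 and 135 in the whole 16 h list. Their widths were 235 to 659 bp, with a median of 417 bp. For 12 of the 25 the nearest 1.5 h peak was over 100 kb away, and for 5 it was within 10 kb. In 9 of the 25 that nearest early peak scored under 60, close to the lowest score listed at 1.5 h, and in 3 it scored 100 or more. In the whole 1.5 h list of 2206 peaks, the first 500 by score reached down to 94.7. Whether the neighbours differ from early peaks in general was not tested.

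The first site, on chromosome 7 at 144750810 to 144751382, stood apart from all others in score. It scored 630, was 573 bp wide, and had no peak of either time within 590 kb. The second, on chromosome 19 at 42440524 to 42441182, scored 326 and was 659 bp wide. It too stood alone, with the nearest 16 h peak 48.3 kb and the nearest 1.5 h peak 162 kb away. The third, on chromosome 9 at 33193733 to 33194154, scored 322 and had another 16 h peak 37 bp away. The fourth, on chromosome 3 at 196070014 to 196070413, scored 269 and had its nearest 16 h peak 525 kb away. Solitary sites thus made up 3 of the first 4.

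Further sites were among the 12 of these 25 with the nearest early peak over 100 kb away. Another 5 of the 25 had it within 10 kb. The site on chromosome 1 at 112604422 to 112604827 scored 209, was 406 bp wide and lay 2652 kb from the nearest 1.5 h peak. A site on chromosome 16 at 33963017 to 33963433 scored 211 and lay 8191 kb from one, in a run of 5 late peaks. Whether that run marks true binding was not tested. A pair on chromosome 11, at 131934919 to 131935284 and at 131941957 to 131942314, scored 182 and 236. Its members were 366 and 358 bp wide and lay 6672 bp apart, with the nearest 1.5 h peak 1032 and 1039 kb away. Of the remaining sites among the 25, those on chromosome 5 at 142388701 to 142389199, on chromosome 18 at 77627207 to 77627531 and on chromosome 1 at 90204705 to 90205047 scored 224, 210 and 212. Each of the 3 stood alone, with the nearest 1.5 h peak 236, 278 and 314 kb away.

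Several others of the 25 had further late peaks close by. The site on chromosome 17 at 7745931 to 7746373 scored 252, was 443 bp wide and had another 16 h peak 24 bp away, in a run of 4. A site on chromosome 2 at 20793109 to 20793525 scored 199 and had another 16 h peak 15 bp away. For the site on chromosome 10 at 5606059 to 5606475, which scored 239, the nearest 16 h peak was 1352 bp away. Without a 16 h neighbour within 10 kb were the sites on chromosome 3 at 5068183 to 5068539 (score 240) and on chromosome 5 at 168139535 to 168139924 (score 197) and 136570524 to 136571036 (score 182). The last of these had a 1.5 h peak 2223 bp away, which scored 52.2.

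For 3 of these 25 sites the nearest early peak scored 100 or more. The site on chromosome 19 at 41833624 to 41834213 scored 186 and was 590 bp wide. Its nearest 1.5 h peak, 101 kb away, scored 324. Another, on chromosome 7 at 41068669 to 41069038, scored 206, and the early peak 78.0 kb from it scored 382. The site on chromosome 11 at 11334937 to 11335378 scored 243, and the early peak 414 kb from it scored 160.5. These strong early peaks thus lay 78.0 to 414 kb from the late-only sites.

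Distances from late-only sites to the nearest early peak ranged from 2 bp to 14.5 Mb. The choice of sites excluded overlap, and no random positions were compared, so whether these distances are long was not tested. The median distance from a late-only site to the nearest 1.5 h peak was 275 kb (binomial interval of the median 176 to 374 kb, 261 sites), with quartiles of 24.02 and 971 kb. The 2 sites on chromosome Y had no 1.5 h peak on their chromosome. Of the 263 sites, 52 (19.8%, 15.1 to 25.1%) lay within 10 kb of an early peak, 95 (36.1%, 30.3 to 42.2%) within 100 kb, and 65 more than 1000 kb away. For the 2473 late-only peaks scoring under 80, the share within 10 kb was 6.87% (5.91 to 7.94%) and the median distance 663 kb. For the 348 early-only peaks of score 80 or more, 29.6% (24.8 to 34.7%) had a 16 h peak within 10 kb and the median distance was 93.5 kb. The lists differ in length (3280 peaks at 16 h and 2206 at 1.5 h), and its part in these distances was not tested. The farthest site, on chromosome X at 118074905 to 118075025, scored 92.0 and lay 14.5 Mb from an early peak.

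**Figure D2:**
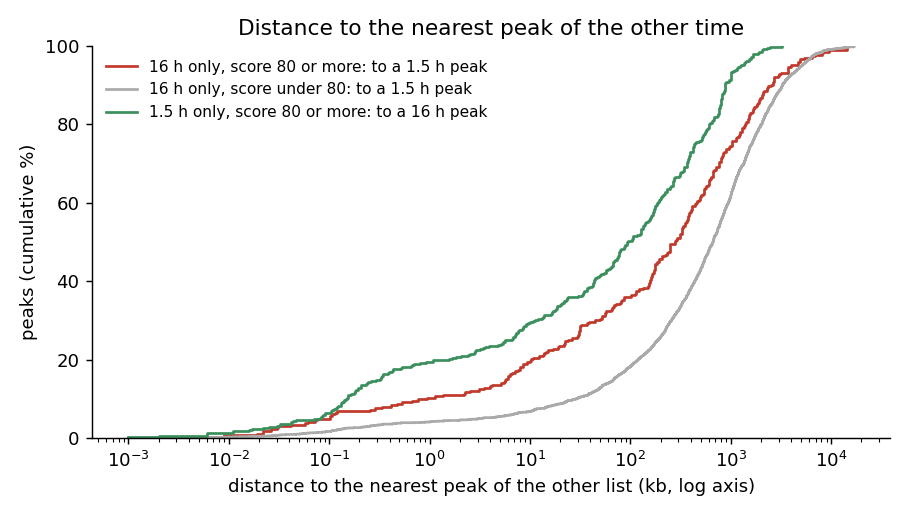
Cumulative percent of peaks (y axis) by distance to the nearest peak of the other list (x axis, kb, log scale, distances of 0 drawn at 1 bp). The red line (late-only, score 80 or more) stands at 36.1% at 100 kb, where the grey line (late-only, score under 80) stands at 18.3%, and the green line shows early-only peaks of score 80 or more against the 16 h list.

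Within 500 bp of an early peak lay 23 late-only sites (8.75%, 5.62 to 12.8%), and counting these as shared left 240. The share was 3.84% (3.12 to 4.68%) for late-only peaks scoring under 80. Of early-only peaks of score 80 or more, 17.5% (13.7 to 21.9%) lay within 500 bp of a 16 h peak. The closest of the 23 sites, on chromosome 12 at 95348046 to 95348380, scored 183 and was separated by 2 bp from a 1.5 h peak scoring 53.3. On chromosome 22, a site at 44759370 to 44759511 scored 82.3 and lay 9 bp from a 1.5 h peak scoring 63.3. The site on chromosome 1 at 146643938 to 146644337, seventh in score with 244, lay 102 bp from a 1.5 h peak scoring 53.6. On chromosome 2, a site at 9252535 to 9252766 scored 164.5 and lay 114 bp from an early peak scoring 52.6. In these 4 cases, which are not the 4 closest, the neighbouring early peak scored no more than 63.3. Sites 19 bp (chromosome 3), 22 bp (chromosome 21) and 42 bp (chromosome 5) from an early peak had neighbours scoring 66.8, 89.85 and 86.3.

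Other late-only sites lay beside an early peak of high score within the 1.5 h list. On chromosome 14, a site at 75039039 to 75039195 scored 125 and lay 31 bp from a 1.5 h peak scoring 271. On chromosome 10, a site at 75691955 to 75692119 scored 81.5 and lay 22 bp from a 1.5 h peak scoring 130, which no 16 h peak overlapped. Over the 23 sites, the neighbouring early peak had a median score of 63.3 (range 52.6 to 271). It scored under 60 in 8 cases and 80 or more in 6. In the whole 1.5 h list, 685 of 2206 peaks scored 80 or more, so a high score was not particular to these neighbours. In 8 of the 23 cases that early peak was itself overlapped by another 16 h peak, so the late-only site there was an additional interval beside a shared one.

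How far early partners reach down to the lowest listed score was read from the shared sites. Of the 326 shared 16 h peaks scoring 80 or more, 29 (8.90%, 6.04 to 12.5%) had their best 1.5 h partner at a score of 50 to 60. That share was 17.6% (10.4 to 27.0%) for the 91 shared peaks scoring 80 to 100 and 6.57% (3.05 to 12.1%) for the 137 scoring 100 to 200. Partners scoring 100 or more were found for 202 of the 326 (62.0%). How many late-only sites had early signal just short of the listing threshold was not tested, since the lists hold no signal below it.

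Widths of the late-only sites rose with score, as those of shared sites did, and the medians of each class were close. The median width was 223 bp (interval 204 to 236 bp) for the 263 late-only sites and 300.5 bp (285 to 325 bp) for the 326 shared ones, which score higher. Within a score class the difference was smaller. At scores of 80 to 90 the medians were 173.5 bp (150 to 192) and 185 bp (169 to 196). At 120 to 150 they were 249 bp (218 to 303) and 272 bp (229 to 300), and at 150 to 200 they were 347 bp (328 to 390) and 344.5 bp (313 to 377). At 200 or more they were 417 bp (358 to 452) and 483.5 bp (442 to 521). The intervals of late-only and shared sites overlapped in all 6 classes. The widest late-only site, on chromosome 4 at 68265720 to 68266789, was 1070 bp wide and scored 130.

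A group of very narrow sites lay outside this band. Of the 263 late-only sites, 26 (9.89%, 6.56 to 14.1%) were under 100 bp wide, and 20 of these were under 70 bp. Among the 326 shared 16 h peaks of score 80 or more, 6 (1.84%, 0.678 to 3.96%) were under 100 bp wide and 1 was under 70 bp. Among the 348 early-only peaks of score 80 or more, the numbers were 8 (2.30%, 0.998 to 4.48%) and 3. The narrow late-only sites scored 80.6 to 173, with a median of 100.2, close to the 103 of the 237 wider ones. Their widths ran from 39 to 99 bp, and they lay on 16 chromosomes. A narrow interval has fewer bases with which to meet an early peak, so width is not fully independent of the choice of sites.

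**Figure D3:**
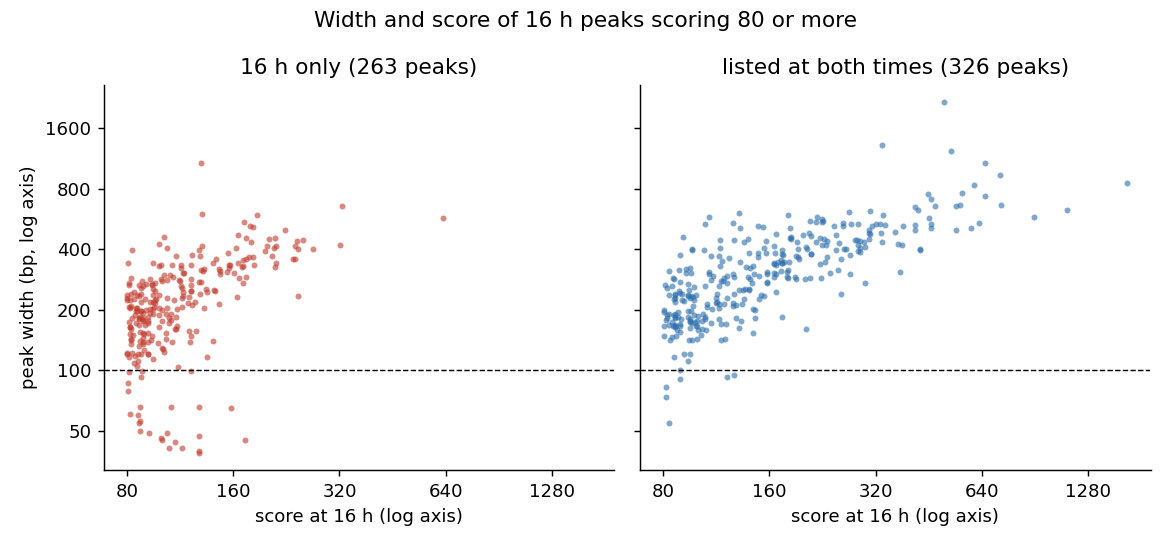
Peak width (y axis, bp, log scale) against 16 h score (x axis, log scale) for the 263 late-only sites (left, red) and the 326 shared 16 h peaks (right, blue) scoring 80 or more, 1 point per peak. Below the dashed line at 100 bp lie 26 late-only sites and 6 shared ones.

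The narrowest late-only site, on chromosome 11 at 84024398 to 84024436, was 39 bp wide and scored 128. A site of 40 bp on chromosome 7 at 103782349 to 103782388 had the same score. The highest score in the narrow group was 173, for a site of 45 bp on chromosome 9 at 10295 to 10339, close to the first base of the chromosome. Both sites on chromosome Y belonged to the group, at 58856046 to 58856111 and 58862694 to 58862758, with widths of 66 and 65 bp and scores of 128 and 158. Of the 26 narrow sites, 18 had no other peak of either time within 10 kb. The remaining 8 included a site of 47 bp on chromosome 18 at 73330253 to 73330299, which scored 128 and lay 6325 bp from an early peak. Whether the narrow intervals or the wider sites mark SMAD2/3 binding was not tested, since neither reads nor the input library were used here. Without them, 237 late-only sites remained, which was 42.5% of the 16 h peaks of score 80 or more and at least 100 bp wide.

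Most late-only sites stood alone. When peaks of either list at most 10 kb apart were joined into runs, the 263 sites fell into 243 runs. In 152 cases (57.8%, 51.6 to 63.8%) the site was the run's sole peak. Another 55 sites (20.9%, 16.2 to 26.3%) had further 16 h peaks but no 1.5 h peak in their run, and 56 (21.3%, 16.5 to 26.7%) had a 1.5 h peak in it. The solitary sites had a median score of 103 (95.0 to 108) and the others 111 (98.8 to 122) and 99.1 (94.7 to 111), with overlapping intervals. The early-only peaks of score 80 or more were solitary in 139 of 348 cases (39.9%, 34.8 to 45.3%). A same-list neighbour within 10 kb was found for 56.6% (51.2 to 61.9%) of early-only peaks of that score and for 35.0% (29.2 to 41.1%) of late-only sites. Peaks of the 1.5 h list scoring under 80 were not examined for this. At 16 h, 45.7% (40.2 to 51.3%) of shared peaks of score 80 or more and 13.1% (11.8 to 14.5%) of late-only peaks under 80 had such a neighbour.

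Several late-only sites occurred together in 16 runs, which held 36 of the 263 sites. In 10 of these runs no 1.5 h peak was listed. A run on chromosome 17 at 48255744 to 48271372 and one on chromosome 21 at 10700529 to 10724968 held 4 late-only sites each. The other 14 runs held 2 each.

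In the 15.63 kb run on chromosome 17 at 48255744 to 48271372, the 4 late-only sites lay within a stretch from 48261512 to 48264224. Their scores were 244, 171, 92.9 and 96.9 in order of position, and their widths 235, 272, 219 and 227 bp. Around them lay 5 late-only peaks of lower score, between 50.9 and 71.5. The run's sole 1.5 h peak, at 48255938 to 48256065, scored 50.6. It was overlapped by a pair of 16 h peaks scoring 68.6 and 68.5 at the opposite end of the run from most of the weaker late peaks. The strong late-only sites of this run therefore lay over 5 kb from the shared ones.

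In the run on chromosome 21 at 10700529 to 10724968, the late-only sites scored 203, 116, 82.2 and 130 in order of position. The first pair was 51 bp apart, and the last site was 598 bp wide. The run held 12 peaks at 16 h, of which 8 scored 50.9 to 65.2, and a single 1.5 h peak scoring 56.9. The low-score peaks were spread over the full 24.44 kb. Whether the peaks of this run mark true binding was not tested.

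Runs without a 1.5 h peak included another one on chromosome 17, at 57906666 to 57921106. Its late-only sites, at 57906666 to 57906813 and 57920774 to 57921106, scored 94.1 and 156 and lay 13.96 kb apart at the ends of the run. The stronger one had peaks scoring 57.3 and 58.2 just before it. On chromosome 1, a run at 183214779 to 183220354 held late-only sites scoring 113 and 87.7 among 5 further peaks scoring 54.5 to 78.4. On chromosome 12, a run at 95508785 to 95510737 packed 5 late peaks into 1953 bp, with late-only sites scoring 89.12 and 89.07 in it. On chromosome 10, the sites of a run at 105631853 to 105641792 lay 9222 bp apart at its ends and scored 122 and 80.8. On chromosome 4, a run at 68264453 to 68266789 consisted of 2 late-only sites scoring 102 and 130, which were 461 and 1070 bp wide and 806 bp apart. On chromosome 11, the sites of a run at 12101633 to 12112419 scored 111 and 98.4, and this run did hold a 1.5 h peak, scoring 77.2.

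**Figure D4:**
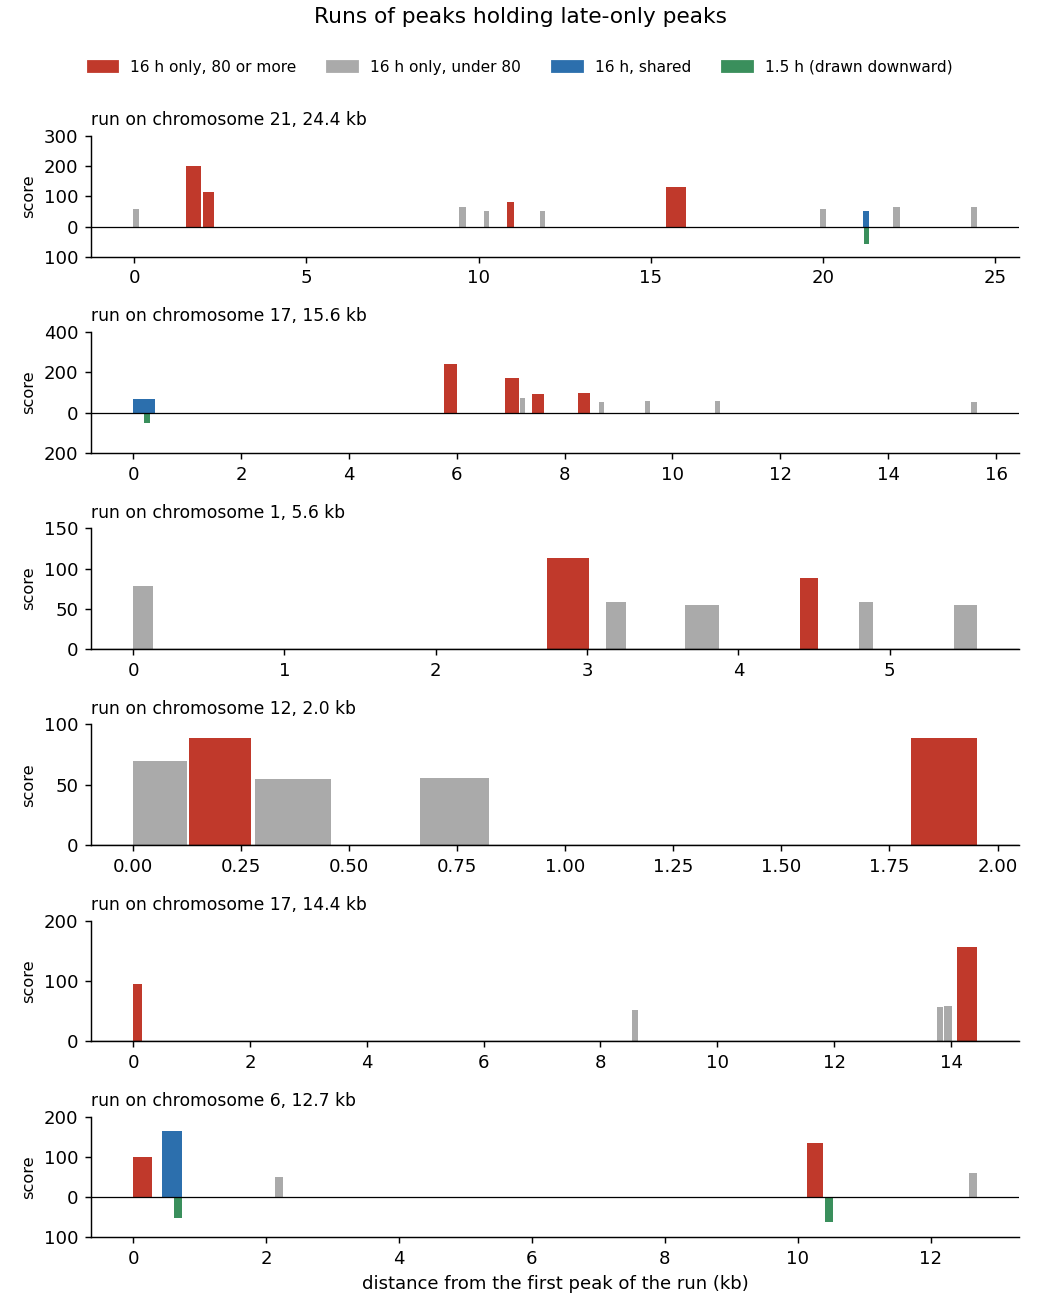
The 6 runs with several late-only sites and at least 5 peaks at 16 h. The x axis is distance from the first peak of the run (kb), and bar height is the peak's score, with 16 h peaks upward (late-only of score 80 or more in red, late-only under 80 in grey, shared in blue) and 1.5 h peaks downward in green. Bars are drawn at peak width or a minimum visible width. The longest runs on chromosomes 21 and 17 show 4 red bars each.

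In some runs the late-only sites lay almost end to end. Whether such neighbours are pieces of one site was not tested. On chromosome 5 at 142024659 to 142025001, sites scoring 88.0 and 82.2 were separated by 2 bp. On chromosome 17 at 30896197 to 30896614 the gap was 12 bp, with scores up to 140, and on chromosome 9 at 86796605 to 86797020 it was 22 bp, with scores of 98.8 and 120. On chromosome 9 at 107825913 to 107827212, late-only sites scoring 143 and 106 were 6 bp apart and lay on the same side of a shared 16 h peak. That shared peak scored 541 at 16 h and its 1.5 h partner scored 67.9. When peaks of a list under 500 bp apart were merged first, 249 late-only sites remained, with a median width of 249 bp.

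In 2 further runs late-only sites lay beside shared ones. On chromosome 6 at 30710044 to 30722739, the late-only sites scored 99.9 and 135, and a shared 16 h peak between them scored 165 against 52.8 for its 1.5 h partner. On chromosome 17 at 73681135 to 73696948, the late-only sites scored 108 and 210.5, and the shared 16 h peak scored 52.4 against 90.3 for its partner. Scores of the 2 libraries stand side by side here and were not compared. Over all sites, 34 of the 263 (12.9%, 9.12 to 17.6%) had a shared 16 h peak in their run.

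Late-only peaks were listed on all 24 chromosomes. The 2 on chromosome Y were both under 100 bp wide, with no shared or early-only peak of score 80 or more on that chromosome. Whether these 2 mark binding or misplaced reads was not tested. The highest numbers of late-only sites were on chromosomes 1, 5, 9 and 17, with 24, 23, 21 and 20 of the 263. Chromosomes 1, 5 and 9 also held 53, 46 and 45 of all 16 h peaks of score 80 or more. Their late-only shares were 45.3%, 50% and 46.7%, near the 44.7% of all chromosomes. Shares of the 16 h peaks of score 80 or more are given for chromosomes among the 15 with at least 20 such peaks. Late-only sites made up 64.5% on chromosome 17 (20 of 31, interval 45.4 to 80.8%) and 65.2% on chromosome 12 (15 of 23, 42.7 to 83.6%). They made up 24.1% on chromosome 20 (7 of 29, 10.3 to 43.5%), 27.6% on chromosome 6 (8 of 29, 12.7 to 47.2%) and 29.6% on chromosome 18 (8 of 27, 13.8 to 50.2%). Chromosomes 21 (8 of 12, 66.7%) and Y (2 of 2) had higher shares of fewer peaks. The interval left out the 44.7% of all chromosomes for 2 of 24, chromosome 17 above it and chromosome 20 below it. These 24 intervals were not adjusted for their number. On chromosome 17, 10 of the 20 sites belonged to the 4 runs described above, so they are not separate observations of the chromosome.

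**Figure D5:**
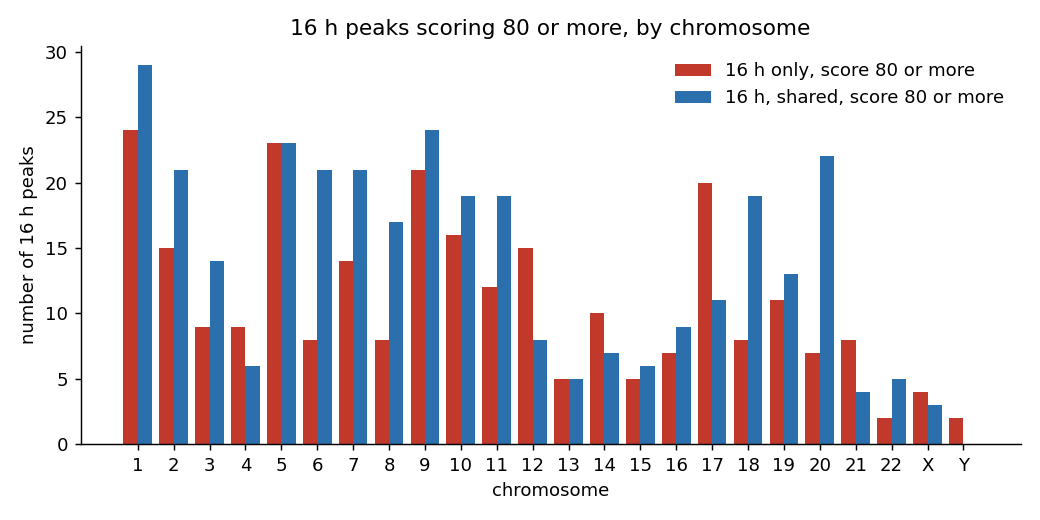
Number of 16 h peaks scoring 80 or more (y axis) on each chromosome (x axis), late-only in red and shared in blue. Chromosome 17 has 20 late-only and 11 shared peaks, and chromosome 20 has 7 and 22.

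The first 50 Mb of chromosome 5 held 8 of that chromosome's 23 late-only sites, with scores of 81.3 to 141. It also held 6 of the 23 shared 16 h peaks and 2 of the 26 early-only peaks of score 80 or more. Among late-only peaks scoring under 80, 158 of the 310 on chromosome 5 lay in this segment. These counts were not set against the length of the segment, and no excess of late-only sites in it was tested. Only 1 of the 8 sites was under 100 bp wide, the site of 45 bp at 24116682 to 24116726 with a score of 100.55.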

How the data were processed

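The authors deposited a list of peaks for each ChIP library, with position, name and a score per peak. Bowtie 1.1.0, Picard, MACS 1.4.2 and build hg19 are the tools and genome used, per the submitters' processing notes. The sources used here do not give their settings or the role of the input. Deposited scores start at 50.02 (1.5 h) and 50 (16 h). Nor do these sources define the score, so scores served to rank peaks within a list. Peaks were listed per library, and no label mentions pooling.

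Starts were converted to 1-based positions. Peaks were compared by shared bases and by the bases between them. Shares have exact Clopper-Pearson intervals and medians binomial intervals, both at 95%. Samples were grouped by treatment label. The sites and comparisons were chosen with earlier results of these data known. Named were the 25 sites of highest score, runs with several sites and sites at the score minimum. Narrow, widest, near and farthest sites were chosen after their values were seen. Python 3.11.15, numpy 2.4.6, pandas 2.3.3, scipy 1.17.1 and matplotlib 3.10.9 were used, and overlap and distance code was tested on simulated data. Positions relative to genes, motifs and GC content were planned but need hg19 annotation and sequence, which were not used here.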

Additional observations from a re-analysis of the deposited data

How the results depend on the processing

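Removing 16 h peaks under 100 bp wide, and recounting narrow sites under each setting, were chosen after seeing the data. With a score of at least 60, late-only sites numbered 832, or 64.9% of 16 h peaks, with 192 under 100 bp, a median width of 134 bp and a median distance of 445 kb. With at least 100 they numbered 142 (37.7%), with 13 narrow ones and a median width of 285 bp. Both follow from the change in minimum. A reciprocal overlap of 50% gave 407 sites (69.1%) and a median distance of 15.1 kb, since it adds sites that overlap an early peak. Counting a distance of up to 10 kb as shared gave 35.8% and 445 kb. Merging peaks under 500 bp apart moved the median width to 249 bp. Other values stayed within 1.5 times (counts) or inside their interval. Alternatives for gene starts, motifs, GC content and sequence windows were not run, for want of hg19 data here. No paired analysis was possible because neither time had a second library, and for this reason none could be left out. Unknown depth limits what the absence of an early peak shows.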

Other observations

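Among the late-only sites, 4 had exactly the same score, 128.41, and all 4 were under 70 bp wide (39 to 66 bp). They lay on chromosomes 7, 11, 18 and Y. The other scores held by at least 3 late-only sites were 80.2, 86.53, 87.97, 89.12, 95.03 and 121.88, and the sites with those scores were 139 to 283 bp wide. Late-only peaks scoring under 80 were under 100 bp wide in 975 of 2473 cases (39.4%, exact interval 37.5 to 41.4%) but under 70 bp in 71 (2.87%, 2.25 to 3.61%). These ties and widths were noticed in the lists and were not tested.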
